A study of Homo sapiens with 6 samples.

Results

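The genes that build cholesterol and fatty acids were followed in KO52 cells, a human acute myeloid leukemia line labelled as a CEBPA double mutant. The set was a list of 30 named genes, and each of them was found in the count tables and passed the filter on low counts, which kept 15395 of the 60612 gene IDs. It held 7 enzymes of the mevalonate arm, 11 enzymes from squalene to cholesterol, 5 regulators and carriers of sterol, and 7 genes of fatty acid synthesis and desaturation. The rule names them by function and uses no value of these libraries, but the list was drawn up with earlier results of these data known.

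There were 3 groups of 2 libraries each. The groups named dnCEBP and dnFOS carried a doxycycline-inducible pCW57.1 lentiviral construct that encodes a dominant negative peptide against the C/EBP or the AP-1 family. These peptides pair with family members and keep them off DNA. The EV group carried an empty vector that expresses GFP. The study's methods describe doxycycline treatment and a sort for GFP positive cells, and the dose and time of the RNA samples were not given in the sources used here. The study states an induction time for chromatin libraries of dnCEBP cells. All groups share the CEBPA double mutant genotype, and the cells are a single line. Nothing in the labels says that the libraries of a group came from separate cultures, so the spread between them may be technical.

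Cholesterol is made from acetyl-CoA. The mevalonate arm joins acetyl units into HMG-CoA and mevalonate and ends in farnesyl diphosphate, which feeds both sterols and the lipid anchors of proteins. Squalene synthase commits the chain to sterols, and a series of oxidations, demethylations and reductions in the endoplasmic reticulum then yields cholesterol. Transcription of both pathways is set by SREBP proteins, encoded by SREBF1 and SREBF2, which leave the endoplasmic reticulum when sterol is scarce and are held there by INSIG proteins when it is plentiful. SREBP is known to bind promoters together with NF-Y, which reads the letters CCAAT, and with SP1, which reads GGGCGG. Leukemic cells that divide need sterol and fatty acid for new membranes.

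Promoter letters known for this regulation were searched in RefSeq windows of 300 bases on GRCh38.p14, each with 250 bases before and 50 after a transcript start. A window was at hand for 26 of the 30 members, with 36 windows in all because some genes have several starts. FDFT1, SQLE, FASN and ACAT2 had none. Matches were counted on both strands, and letters of different motifs may overlap, as CCAAT and TTGCNNAA do in NSDHL. The 5 stretches printed were chosen to show CCAAT boxes of 3 members called in dnFOS (MSMO1, HMGCS1 and INSIG1) and of MVD, not called. The other, SREBF2, holds the set's single match to a sterol regulatory element in the form searched. Other forms were not searched. Each runs 5′ to 3′ on the gene's strand and stops before the first base of the gene in GENCODE 29. Boxes of the window past that point, as in MSMO1 and HMGCS1, are not printed. Capitals mark CCAAT, read on either strand, and the letters TCACNCCAC, a common form of the sterol regulatory element. The MSMO1 stretch is chr4:165327419-165327622 on the plus strand, HMGCS1 is chr5:43313513-43313662 on the minus strand, INSIG1 is chr7:155297628-155297775 on the plus strand, SREBF2 is chr22:41832855-41833078 on the plus strand and MVD is chr16:88663162-88663341 on the minus strand.
MSMO1: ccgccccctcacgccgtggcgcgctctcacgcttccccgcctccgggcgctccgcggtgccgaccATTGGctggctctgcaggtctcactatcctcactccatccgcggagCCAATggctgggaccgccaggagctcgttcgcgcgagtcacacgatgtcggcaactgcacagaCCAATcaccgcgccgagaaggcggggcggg
HMGCS1: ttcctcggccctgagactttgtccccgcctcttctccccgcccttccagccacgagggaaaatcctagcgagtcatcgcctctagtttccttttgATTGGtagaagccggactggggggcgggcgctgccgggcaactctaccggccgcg
INSIG1: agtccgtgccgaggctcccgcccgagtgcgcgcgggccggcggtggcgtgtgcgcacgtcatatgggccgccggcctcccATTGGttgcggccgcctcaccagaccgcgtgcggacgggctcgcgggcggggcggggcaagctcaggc
SREBF2: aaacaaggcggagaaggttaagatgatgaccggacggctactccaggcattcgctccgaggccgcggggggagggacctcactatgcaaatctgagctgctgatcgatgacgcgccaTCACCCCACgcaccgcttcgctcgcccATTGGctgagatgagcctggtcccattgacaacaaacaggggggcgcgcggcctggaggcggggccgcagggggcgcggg
MVD: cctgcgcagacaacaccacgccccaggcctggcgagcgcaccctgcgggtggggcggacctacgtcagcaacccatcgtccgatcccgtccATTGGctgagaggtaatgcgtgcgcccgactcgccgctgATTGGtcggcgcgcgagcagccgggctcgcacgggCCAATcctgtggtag

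CCAAT stood in the windows of 20 of the 26 members (76.9%), against 43.0% of 10774 tested genes and 39.7% of 27305 genes with a window. Counted per window, where overlapping windows of a gene count the same box again, the shares were 66.7% of 36 and 34.8% of 15468. MSMO1 held 4 CCAAT boxes in its single window, 3 of them in the printed stretch. MVK and NSDHL, neither of which was called in any comparison, held 5 each. Of the 6 members called in dnFOS with a window, 5 held CCAAT, and PMVK held none. Members called and members not called both held the box. The GC box GGGCGG stood in 25 of 26 members (96.2%), against 75.1% of tested genes. TCACNCCAC was found in SREBF2 alone, 133 bases before the start, and in 1.35% of tested genes. The E-box CACGTG was held by 3 members, INSIG1, SC5D and LSS (11.5%, against 12.5% of tested genes). TGANTCA, the AP-1 letters, stood in 0 of 26 members and in 6.66% of tested genes. The C/EBP letters TTGCNNAA stood in 2 members, NSDHL and FADS1 (7.69%, against 10.2% of tested genes). These counts describe letters in a short window and not binding.

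Total counts ran from 21681121 to 27663179 in the EV and dnCEBP libraries and were lower in dnFOS, at 14583615 and 9862994. The share of counts on RN7SL1, an abundant small RNA, was 7.75 to 7.94% in EV and dnCEBP and 6.12% and 4.31% in dnFOS. All 8 markers of myeloid progenitors on a fixed list were detected, with summed levels of 425 to 436 CPM, the usual unit of counts scaled to library size, in EV, 380 to 403 in dnCEBP and 413 to 433 in dnFOS. Within that sum LYZ and CD7 were lower in dnFOS than in EV, at −0.44 (adjusted p = 0.00233 in edgeR) and −0.67 (adjusted p = 0.0363 in edgeR). CSF3R was lower in dnCEBP than in EV, at −0.50 (adjusted p = 0.00421 in edgeR). In dnFOS against dnCEBP CSF3R was higher, at 0.76, and CD34 and LYZ were lower, at −0.38 and −0.29 (edgeR adjusted p from 1.05e-06 to 0.0440). Of 5 lymphoid markers 2 passed the filter, CD3D at 90.7 to 148 CPM and CD79A at low counts, and MS4A1 had 0 counts. The summed lymphoid level was 115 to 121 CPM in EV, 142 in both dnCEBP libraries and 96.9 to 110 in dnFOS. Of 5 epithelial markers 3 passed the filter, summing to 70.9 to 85.3 CPM over the libraries, and CDH1 had 0 counts. KRT8 and KRT18 were lower in dnFOS than in EV, at −0.80 (adjusted p = 0.00499 in edgeR) and −0.43 (adjusted p = 0.0157 in edgeR), while EPCAM was at 0.21 and did not pass. KRT8 was also lower in dnFOS than in dnCEBP, at −0.91 (adjusted p = 0.00134 in edgeR). CD3D was lower in dnFOS than in EV, at a log2 fold change of −0.28 (adjusted p = 0.0287 in edgeR), and lower in dnFOS than in dnCEBP, at −0.58 (adjusted p = 2.49e-05 in edgeR). The 4 fibroblast markers summed to at most 1.37 CPM. The part of depth, RN7SL1 share and marker levels in the results that follow was not tested. In bulk RNA, a change in the number of cells of a kind and a change in RNA per cell cannot be told apart.

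With dnFOS, 7 of the 30 members were called higher than in EV and none was called lower. Of the 7, 6 were enzymes of sterol synthesis and the other was the sterol sensor partner INSIG1. The rises were small, from 18.9% for HMGCS1 to 45.1% for MSMO1. No gene of fatty acid synthesis passed the test. At an edgeR quasi-likelihood adjusted p under 0.05, the share called was 23.3% of members, against 15.0% of all tested genes, of which 7.24% were higher and 7.76% lower. The median log2 fold change of the members was −0.06, against 0.00 for all tested genes, and 13 members lay above 0 and 17 below. Levels of the 2 dnFOS libraries lay above both EV libraries for 10 members and below both for 9, and the same held for 28.3% and 28.4% of all tested genes. The set as a whole therefore did not move in 1 direction.

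The 18 sterol enzymes divided. The 6 with a positive log2 fold change all passed the test, at 0.25 to 0.54. The other 12 had negative values from −0.38 for CYP51A1 to −0.05 for FDFT1, and none of them passed. With the trend of GC content and length removed, a setting described further on, 9 lay above 0 and 9 below, and scaled by library totals, which raised the median of all genes by 0.10, 8 and 10.

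**Figure D1:**
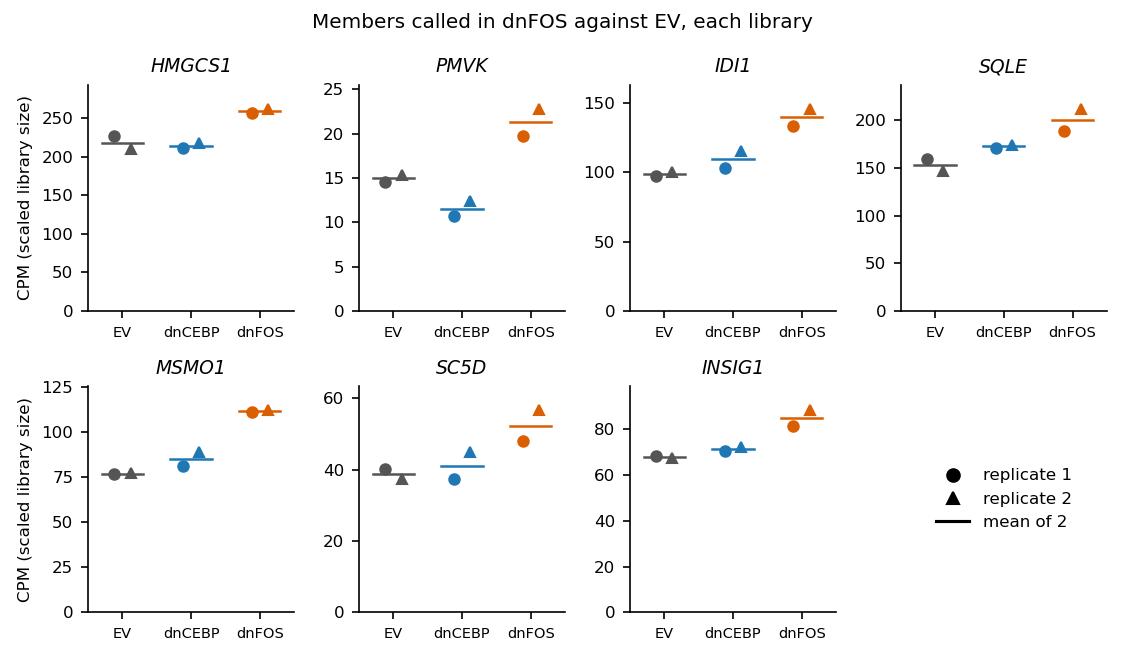
Level of the 7 members called in dnFOS against EV, in CPM on scaled library sizes (vertical axis from 0), for the EV, dnCEBP and dnFOS libraries. Circles and triangles are the libraries of a group and bars their means, and in every panel both dnFOS libraries lie above both EV libraries.

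In the mevalonate arm, HMGCS1, PMVK and IDI1 rose. HMGCS1, which makes HMG-CoA, was the most abundant of them, at 226 and 210 CPM in EV, at 211 and 218 with dnCEBP and at 257 and 262 with dnFOS. The dnFOS libraries were the 2 highest, and the EV and dnCEBP libraries overlapped. Its log2 fold change in dnFOS was 0.25 ± 0.08 (SE; adjusted p = 0.0402 in edgeR), the weakest call of the 7. PMVK, the kinase that adds the second phosphate to mevalonate, stood at 14.6 and 15.4 CPM in EV, at 10.7 and 12.4 with dnCEBP and at 19.8 and 22.8 with dnFOS. No group overlapped with another in PMVK. Its log2 fold change was 0.50 ± 0.15 in dnFOS (adjusted p = 0.0206 in edgeR) and −0.38 ± 0.15 in dnCEBP (adjusted p = 0.287 in edgeR). IDI1, the isomerase that balances the isoprene units, stood at 97.1 and 100 CPM in EV, at 103 and 116 with dnCEBP and at 133 and 146 with dnFOS. The 3 groups were ordered EV, dnCEBP and dnFOS without overlap. The log2 fold change of IDI1 in dnFOS was 0.50 ± 0.09 (adjusted p = 0.000233 in edgeR).

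The remaining mevalonate enzymes did not pass. ACAT2, the thiolase that joins acetyl units, had 87.6 and 78.0 CPM in EV and 73.5 and 64.7 in dnFOS, a log2 fold change of −0.26 ± 0.09 (adjusted p = 0.0605 in edgeR). The groups did not overlap. ACAT2 shares 397 exon bases with TCP1 on the opposite strand, which holds 25878 counts over the 6 libraries, and the use of strand in the counting was not given in the sources used here, so its counts are uncertain. FDPS, which makes farnesyl diphosphate, had a log2 fold change of −0.15 ± 0.09, MVK, the first mevalonate kinase, −0.17 ± 0.16, and MVD, the decarboxylase, −0.12 ± 0.17. MVK and MMAB overlap on opposite strands in 306 exon bases.

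From squalene to cholesterol, SQLE, MSMO1 and SC5D rose. MSMO1, an oxidase that removes methyl groups from the sterol ring, showed the clearest difference. MSMO1 (ENSG00000052802, chr4:165327623-165343160 on the plus strand) stood at 76.7 and 77.5 CPM in EV, 81.2 and 88.9 in dnCEBP and 112 in both dnFOS libraries. The gap between EV and dnFOS was far wider than the gap within either. The mean was 77.1 ± 0.55 CPM in EV and 112 ± 0.57 in dnFOS (SD, n = 2 each), and the log2 fold change was 0.54 ± 0.09 (adjusted p = 8.5e-05 in edgeR). An SD of 2 libraries is a rough measure of spread, whereas the SE of the fit draws on all groups. SQLE, which puts oxygen on squalene, had 159 and 147 CPM in EV, at 171 and 174 with dnCEBP and at 189 and 212 with dnFOS. As for IDI1, the 3 groups did not overlap and dnCEBP lay between. Its log2 fold change in dnFOS was 0.39 ± 0.09 (adjusted p = 0.00242 in edgeR). SC5D, a late desaturase of the ring, stood at 40.2 and 37.5 CPM in EV, at 37.3 and 44.8 with dnCEBP and at 48.1 and 56.7 with dnFOS. Its EV and dnCEBP libraries overlapped. The log2 fold change of SC5D in dnFOS was 0.43 ± 0.12 (adjusted p = 0.0115 in edgeR).

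The enzymes that act beside these did not pass in dnFOS. CYP51A1, the lanosterol demethylase that acts ahead of MSMO1, had 19.1 and 13.96 CPM in EV and 12.1 and 13.4 in dnFOS, with a log2 fold change of −0.38 ± 0.17 (adjusted p = 0.132 in edgeR). Of its 3584 exon bases, 2844 are shared on the same strand with AC000120.2, which had 0 counts. How reads matching both were counted was not given in the sources used here, so the CYP51A1 counts are uncertain. NSDHL and HSD17B7, which work with MSMO1 in removing the methyl groups, were at −0.24 ± 0.15 and −0.27 ± 0.17. HSD17B7 has a pseudogene copy, HSD17B7P2, with 968 counts in all libraries, and reads may be split between them. FDFT1, the squalene synthase, was at −0.05 ± 0.09, LSS, which closes the sterol ring, at −0.06 ± 0.12, the sterol reductase TM7SF2 at −0.33 ± 0.19, the isomerase EBP at −0.11 ± 0.12 and the last reductase DHCR7 at −0.13 ± 0.11. MSMO1, SC5D, SQLE, PMVK and INSIG1 share no exon bases with another gene in GENCODE 29, and HMGCS1 and IDI1 only with antisense genes of at most 3 and 7 counts in a library.

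Among the regulators and carriers, INSIG1 rose. INSIG1, which retains SREBP in the endoplasmic reticulum, had 68.1 and 67.5 CPM in EV, at 70.4 and 72.1 with dnCEBP and at 81.3 and 88.1 with dnFOS. The dnFOS libraries were the highest and the groups did not overlap. Its log2 fold change was 0.32 ± 0.09 (adjusted p = 0.0146 in edgeR). The second retention gene, INSIG2, was at 0.15 ± 0.14, and its dnFOS libraries, at 25.3 and 35.7 CPM, enclosed both EV libraries. STARD4, a cytosolic sterol carrier, was at 0.23 ± 0.10 (adjusted p = 0.114 in edgeR). Of the SREBP genes themselves, SREBF2 was at −0.07 ± 0.09 and SREBF1 at −0.38 ± 0.16 (adjusted p = 0.102 in edgeR). SREBF1 had 20.4 and 20.1 CPM in EV and 16.1 and 14.9 in dnFOS without overlap, and shares 556 exon bases with RAI1 on the opposite strand.

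None of the 7 genes of fatty acid synthesis and desaturation passed in dnFOS in edgeR or limma-voom, and 1 passed with DESeq2 (FADS2, lower). An unadjusted p under 0.05 was reached by 2, without a share of all tested genes to set beside it here. The nearest were ELOVL6, a fatty acid elongase, and FADS2, a desaturase, in opposite directions. ELOVL6 had 12.9 and 14.4 CPM in EV and 18.6 and 17.6 in dnFOS, and its log2 fold change was 0.41 ± 0.15 (adjusted p = 0.0668 in edgeR). FADS2 had 214 and 196 CPM in EV and 178 and 168 in dnFOS, and its log2 fold change was −0.24 ± 0.09 (adjusted p = 0.0540 in edgeR). Both pairs of groups stood apart without passing the test. With median-of-ratios scaling FADS2 passed as lower, which made 7 members higher and 1 lower. The share of all tested genes called with that scaling is not given here, so this count stands without a background. Scaled by library totals, SCD and ELOVL6 passed as higher instead, and with STARD4 these made 10 members higher and 0 lower, where 12.4% of all tested genes were called higher and 4.39% lower. FADS1, the neighbouring desaturase, was at −0.17 ± 0.09, and FADS1 and FADS2 overlap on opposite strands in 490 exon bases. FASN, which assembles the fatty acid chain, was at −0.21 ± 0.27, ACACA, which makes its malonyl-CoA, at 0.14 ± 0.09, ACLY, which supplies acetyl-CoA from citrate, at 0.02 ± 0.09, and SCD, which inserts the double bond, at 0.15 ± 0.08.

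**Figure D2:**
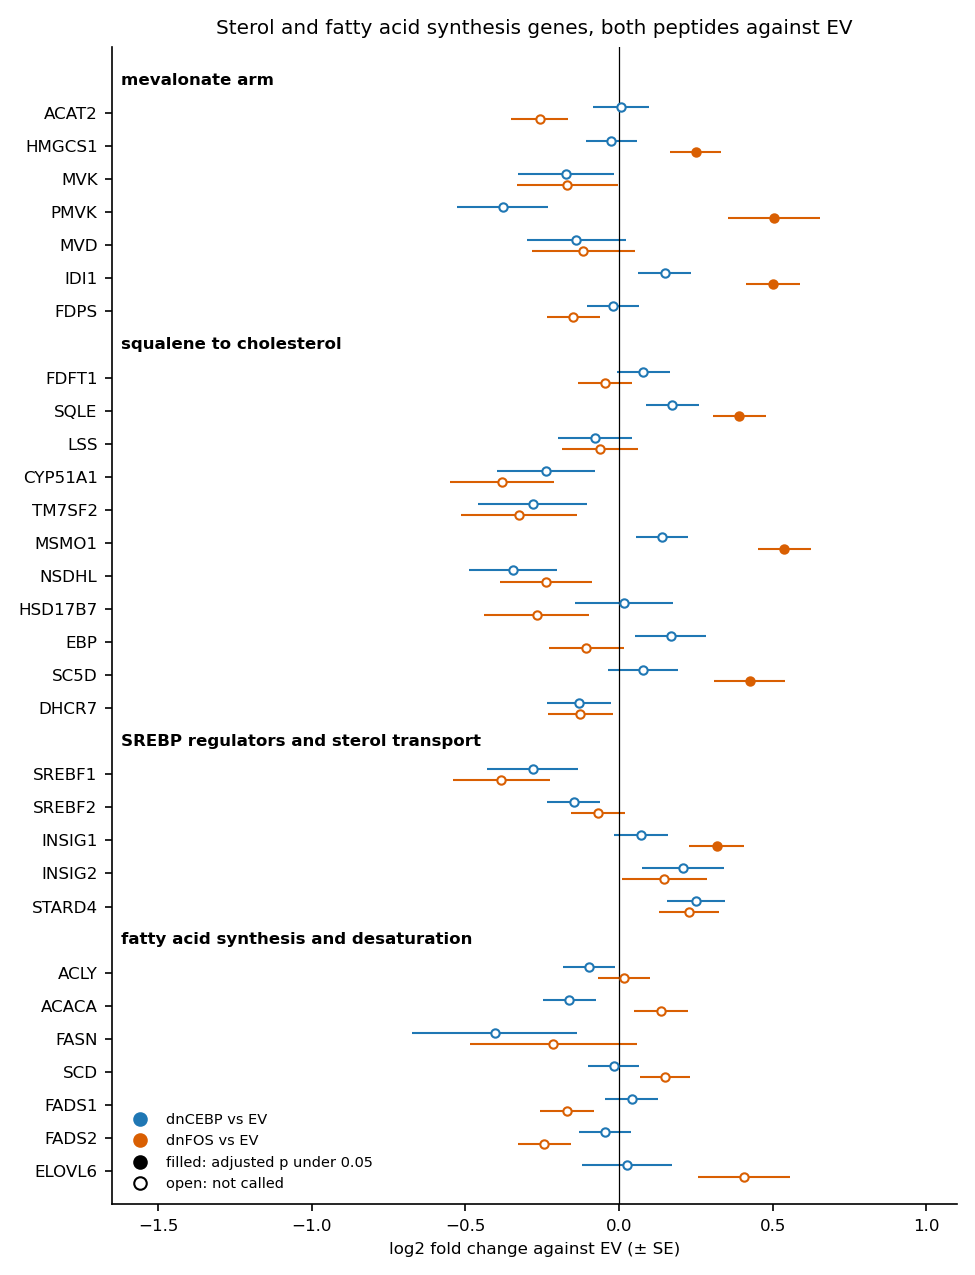
Log2 fold change against EV (horizontal axis, with SE) of the 30 members in dnCEBP and dnFOS, grouped by role. Filled points passed an edgeR adjusted p under 0.05, and the 7 filled points all belong to dnFOS and lie to the right of 0.

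With dnCEBP, 0 of the 30 members passed in edgeR, where 1.07% of all tested genes did, and 0 passed with DESeq2 or limma-voom. At an unadjusted p under 0.05 there were 3, and the share of all tested genes at that cutoff is not given here. The median log2 fold change of the members was −0.02 and the values ran from −0.40 for FASN to 0.25 for STARD4. The smallest adjusted p belonged to STARD4, at 81.1 and 92.2 CPM in EV and 98.0 and 108 in dnCEBP, with a log2 fold change of 0.25 ± 0.09 (adjusted p = 0.255 in edgeR). FASN had 145 and 115 CPM in EV and 120 and 76.2 in dnCEBP, so the groups overlapped, and its log2 fold change was −0.40 ± 0.27 (adjusted p = 0.662 in edgeR). A replicate block, described further on, called FASN lower and STARD4 higher. NSDHL followed PMVK among the low sterol enzymes, at 18.3 and 16.9 CPM in EV and 14.4 and 13.3 in dnCEBP, with a log2 fold change of −0.34 ± 0.14 (adjusted p = 0.315 in edgeR). The dnCEBP libraries lay above both EV libraries for 7 members and below both for 6, and the same held for 21.9% and 20.9% of all tested genes. The median SE over the members was 0.10 on the log2 scale, and the test does not show that the members were equal in dnCEBP and EV.

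Whether the peptides differed was tested by setting dnFOS against dnCEBP directly, a comparison that shares the dnFOS libraries with the one above. In this comparison 6 members were called, against 14.7% of all tested genes, made up of 6.83% higher and 7.84% lower. All 6 were higher in dnFOS. PMVK had the largest difference of any member, a log2 fold change of 0.88 ± 0.15 (adjusted p = 0.000137 in edgeR), or 84.3% more. The dnCEBP libraries lay below both EV libraries and the dnFOS libraries above both. MSMO1 was at 0.40 ± 0.09, IDI1 at 0.35 ± 0.09, SC5D at 0.35 ± 0.11 and HMGCS1 at 0.28 ± 0.08 (edgeR adjusted p from 0.00176 to 0.0387). The other was ACACA, the acetyl-CoA carboxylase, which was called against neither EV comparison. ACACA had 85.5 and 80.8 CPM in EV, at 76.6 and 71.9 with dnCEBP and at 91.6 and 91.4 with dnFOS. As with PMVK, its dnCEBP libraries lay below EV and its dnFOS libraries above, and the direct log2 fold change was 0.30 ± 0.09 (adjusted p = 0.0186 in edgeR). SQLE and INSIG1, called against EV, did not pass in the direct comparison, at 0.22 ± 0.09 (adjusted p = 0.0897 in edgeR) and 0.25 ± 0.09 (adjusted p = 0.0598 in edgeR). With the GC and length trend removed, 6 members were called higher and 3 lower, where 17.3% of all tested genes were called. The lowest members without that correction were HSD17B7, EBP and ACAT2, at −0.29 ± 0.17, −0.27 ± 0.12 and −0.26 ± 0.09, and of all uncalled members ACAT2 came nearest to the threshold (adjusted p = 0.0554 in edgeR). With median-of-ratios scaling ACAT2 passed as lower beside the same 6 higher members, a count for which the share of all tested genes is not given here. The dnFOS libraries lay above both dnCEBP libraries for 12 members and below both for 7, and the same held for 28.6% and 25.9% of all tested genes.

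Base composition moved with the fold changes. Over 15222 tested genes with a transcript, the log2 fold change in dnFOS fell with the GC content of the longest transcript (Pearson's r = −0.303 across genes, which are not independent replicates), and over the 30 members r was −0.551. In dnCEBP the values were −0.214 and −0.701. The points share the same libraries. The 7 members called in dnFOS had a median GC content of 41.1%, the other 23 members 52.2% and all tested genes 47.7%. PMVK, at 59.5%, was the exception among the 7. The members lowest in GC, STARD4, INSIG2, MSMO1, SC5D, HMGCS1, IDI1 and ELOVL6, at 34.2% to 41.2%, lay above 0. CYP51A1 and HSD17B7, next at 41.5% and 41.7%, lay below 0, and the counts of both are uncertain. The cause of this relation was not tested.

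**Figure D3:**
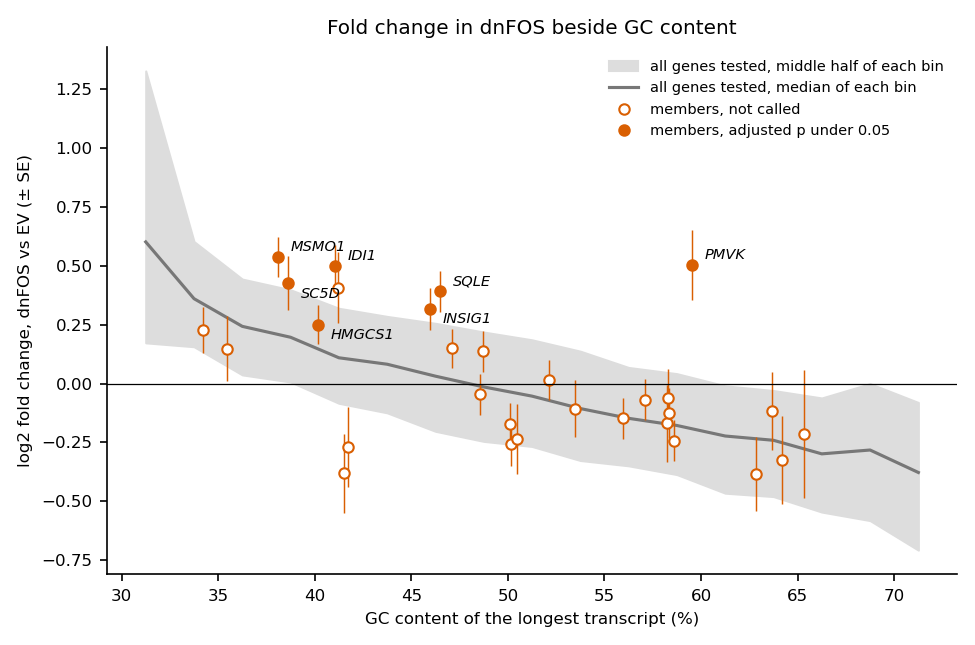
Log2 fold change in dnFOS against EV (vertical axis, with SE) by GC content of the longest transcript (horizontal axis, percent). The grey line and band give the median and middle range of all tested genes in bins of GC content, points are the 30 members, and of the 7 filled points, called at an edgeR adjusted p under 0.05, 6 lie below 47% GC.

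With the trend of fold change on GC content and length removed from each library before the fit, 6 members were called in dnFOS, 5 higher and 1 lower, against 12.9% of all tested genes, made up of 5.02% higher and 7.90% lower. PMVK, IDI1, SQLE, MSMO1 and INSIG1 stayed higher, and CYP51A1 was called lower at −0.50 (adjusted p = 0.0331 in edgeR). PMVK went up to 0.72 (adjusted p = 0.000551 in edgeR) and MSMO1 went down to 0.33 (adjusted p = 0.00184 in edgeR). IDI1, SQLE and INSIG1 were at 0.37, 0.37 and 0.29. HMGCS1, at 0.09 (adjusted p = 0.460 in edgeR), and SC5D, at 0.22 (adjusted p = 0.138 in edgeR), were no longer called. Single libraries also decided some calls. With each library left out in turn, the log2 fold change in dnFOS ran from 0.53 to 0.54 for MSMO1 and from 0.43 to 0.56 for IDI1. It ran from 0.31 to 0.47 for SQLE, 0.40 to 0.61 for PMVK and 0.31 to 0.54 for SC5D. For INSIG1 it ran from 0.26 to 0.38 and for HMGCS1 from 0.18 to 0.30. SQLE, PMVK, SC5D, INSIG1 and HMGCS1 each lost the call in some of these fits. ACAT2 and CYP51A1, not called with all libraries, ran from −0.36 to −0.17 and from −0.60 to −0.13. In some of these fits ACAT2, CYP51A1 or FADS2 was called lower, or STARD4 higher. MSMO1 and IDI1 were called in dnFOS under every setting run.

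Levels per length were compared as CPM per kilobase of exon. In EV the order was led by FDFT1, at 71.7 ± 5.62 (SD, n = 2), SCD at 56.5 ± 1.16 and HMGCS1 at 46.4 ± 2.43. The libraries of these 3 did not overlap between neighbours. ACLY and SQLE followed at 35.6 ± 2.16 and 35.5 ± 1.99 and could not be separated. MSMO1, at 26.7 ± 0.19, and IDI1, at 22.7 ± 0.53, came after FDPS. SREBF2, ACAT2, INSIG1 and FADS2 had means between 18.6 and 19.4 on this scale, and their libraries overlapped except that both INSIG1 libraries lay below both of SREBF2. The lowest were SREBF1 at 2.52 ± 0.03, MVK at 2.06 ± 0.14 and ELOVL6 at 1.87 ± 0.15, and MVK and ELOVL6 overlapped. In dnFOS, SQLE was at 46.6 ± 3.75, above ACLY at 36.0 ± 1.55, and MSMO1 at 38.7 ± 0.20 and IDI1 at 32.2 ± 2.05 both exceeded FDPS at 27.4 ± 1.63. FDFT1, SCD and HMGCS1 stayed the 3 highest. The SREBF2 level was above that of SREBF1 in every library.

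**Figure D4:**
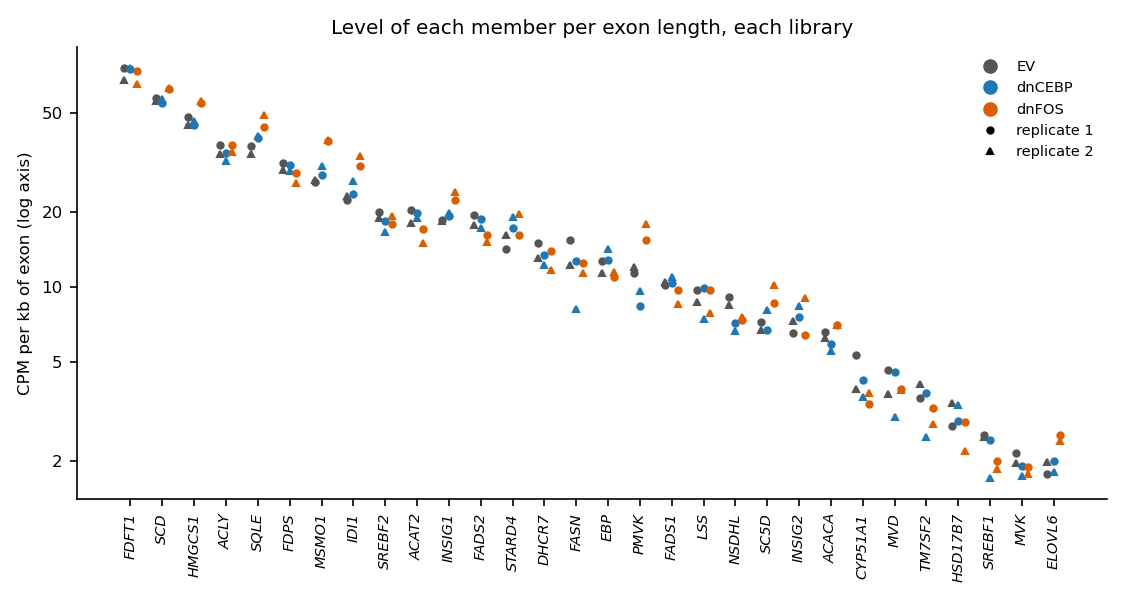
Level of the 30 members in CPM per kilobase of exon (vertical log axis), ordered by the mean of the EV libraries, with colours for the groups and shapes for the libraries. FDFT1 is the highest and ELOVL6 the lowest in EV, and SQLE, MSMO1, IDI1 and PMVK show the dnFOS points set above the others.

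Companion genes of the same pathways were taken from 6 lists with 64 genes, all of which were tested. In dnFOS 16 were called, 7 higher and 9 lower, where 15.0% of all tested genes were. In dnCEBP 1 was called, where 1.07% of all tested genes were. With the GC and length trend removed, dnFOS had 4 higher and 9 lower, where 5.02% and 7.90% of all tested genes were. Scaled by library totals it had 10 higher and 4 lower, where 12.4% and 4.39% were. Without dnFOS replicate 2 it had 2 and 2, SOAT1 and ACSL3 higher and LRP1 and NR1H2 lower, where 6.31% of all tested genes were called in either direction. Without EV replicate 1 there were 9 calls in all, where 6.88% of all tested genes were called.

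The 6 genes that process SREBP, among them SCAP, the escort, and MBTPS1 and MBTPS2, the proteases that cut it, gave 0 calls in edgeR in either comparison with EV, and none with DESeq2 or limma-voom. An unadjusted p under 0.05 was reached by 1 of them in dnCEBP and 0 in dnFOS. The share of all tested genes at that cutoff is not given here. Their log2 fold changes in dnFOS ran from −0.04 to 0.11. In the isoprenoid branch, which turns mevalonate products into protein anchors and quinone tails, 1 of 12 rose. It was PGGT1B, a subunit of the geranylgeranyl transferase, at 0.51 ± 0.12 (adjusted p = 0.00467 in edgeR), and with the GC and length trend removed it was no longer called, at 0.11 (adjusted p = 0.549 in edgeR). With that correction the branch had 0 higher and 2 lower calls, FNTA at −0.32 (adjusted p = 0.00608 in edgeR) and RABGGTB at −0.24 (adjusted p = 0.0242 in edgeR), subunits of prenyl transferases that are named here after their values were seen.

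Of 8 genes for sterol uptake and lysosomal export, 1 rose and 3 fell in dnFOS. LRP1, a large endocytic receptor of lipoproteins, stood at 10.7 and 12.0 CPM in EV, at 6.70 and 6.23 with dnCEBP and at 5.93 and 3.87 with dnFOS. The libraries of both peptides lay below EV. Its log2 fold change was −1.18 ± 0.21 in dnFOS (adjusted p = 0.000310 in edgeR) and −0.81 ± 0.19 in dnCEBP (adjusted p = 0.0272 in edgeR), the single call of the companion lists there, which was lost with DESeq2 and when any 1 of the EV or dnCEBP libraries was left out. VLDLR, another lipoprotein receptor, was at 9.82 and 10.6 CPM in EV and 7.03 and 4.64 in dnFOS, a log2 fold change of −0.77 ± 0.21 (adjusted p = 0.00993 in edgeR). NPC2, the lysosomal cholesterol carrier, fell by 0.42 on the log2 scale, and SCARB2, a lysosomal membrane protein, rose by 0.35. With the GC and length trend removed SCARB2, at 0.22 (adjusted p = 0.116 in edgeR), was no longer called, and LRP1, VLDLR and NPC2 stayed lower.

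Among 7 genes of the LXR response and sterol efflux, 1 rose and 2 fell in dnFOS. SOAT1, which esterifies cholesterol for storage, rose by 0.49 ± 0.12 (adjusted p = 0.00467 in edgeR). NR1H2, the sterol receptor LXR beta, was at −0.57 ± 0.17 (adjusted p = 0.0189 in edgeR) and MYLIP, a ligase that degrades lipoprotein receptors, at −0.35 ± 0.11 (adjusted p = 0.0354 in edgeR). Of these 3, NR1H2 was no longer called with the GC and length trend removed, at −0.34.

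Of 16 genes that supply and lengthen fatty acids, 3 rose and 2 fell. The genes that rose were HSD17B12 at 0.47 ± 0.10, a reductase of the elongation cycle, ACSL3 at 0.40 ± 0.09, which activates fatty acids, and ELOVL5 at 0.34 ± 0.09, an elongase of polyunsaturated chains. The genes that fell were SLC25A1 at −0.49 ± 0.16, the citrate carrier, and TECR at −0.43 ± 0.14, the last reductase of the elongation cycle. HSD17B12 and TECR act in the same cycle and moved in opposite directions. ACSL3, at 0.18, and SLC25A1, at −0.18, were no longer called with the GC and length trend removed, and ME1 at −0.32 and ACSL1 at −0.35, also named after their values were seen, were called lower. In fatty acid oxidation, 1 of 15 rose, the medium-chain dehydrogenase ACADM at 0.43 ± 0.09, and 2 fell, ACADS at −0.74 ± 0.22 and ACADVL at −0.42 ± 0.10, which handle short and very long chains. With the GC and length trend removed ACADM stayed higher at 0.29 and neither ACADS, at −0.45, nor ACADVL, at −0.23, was called.

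**Figure D5:**
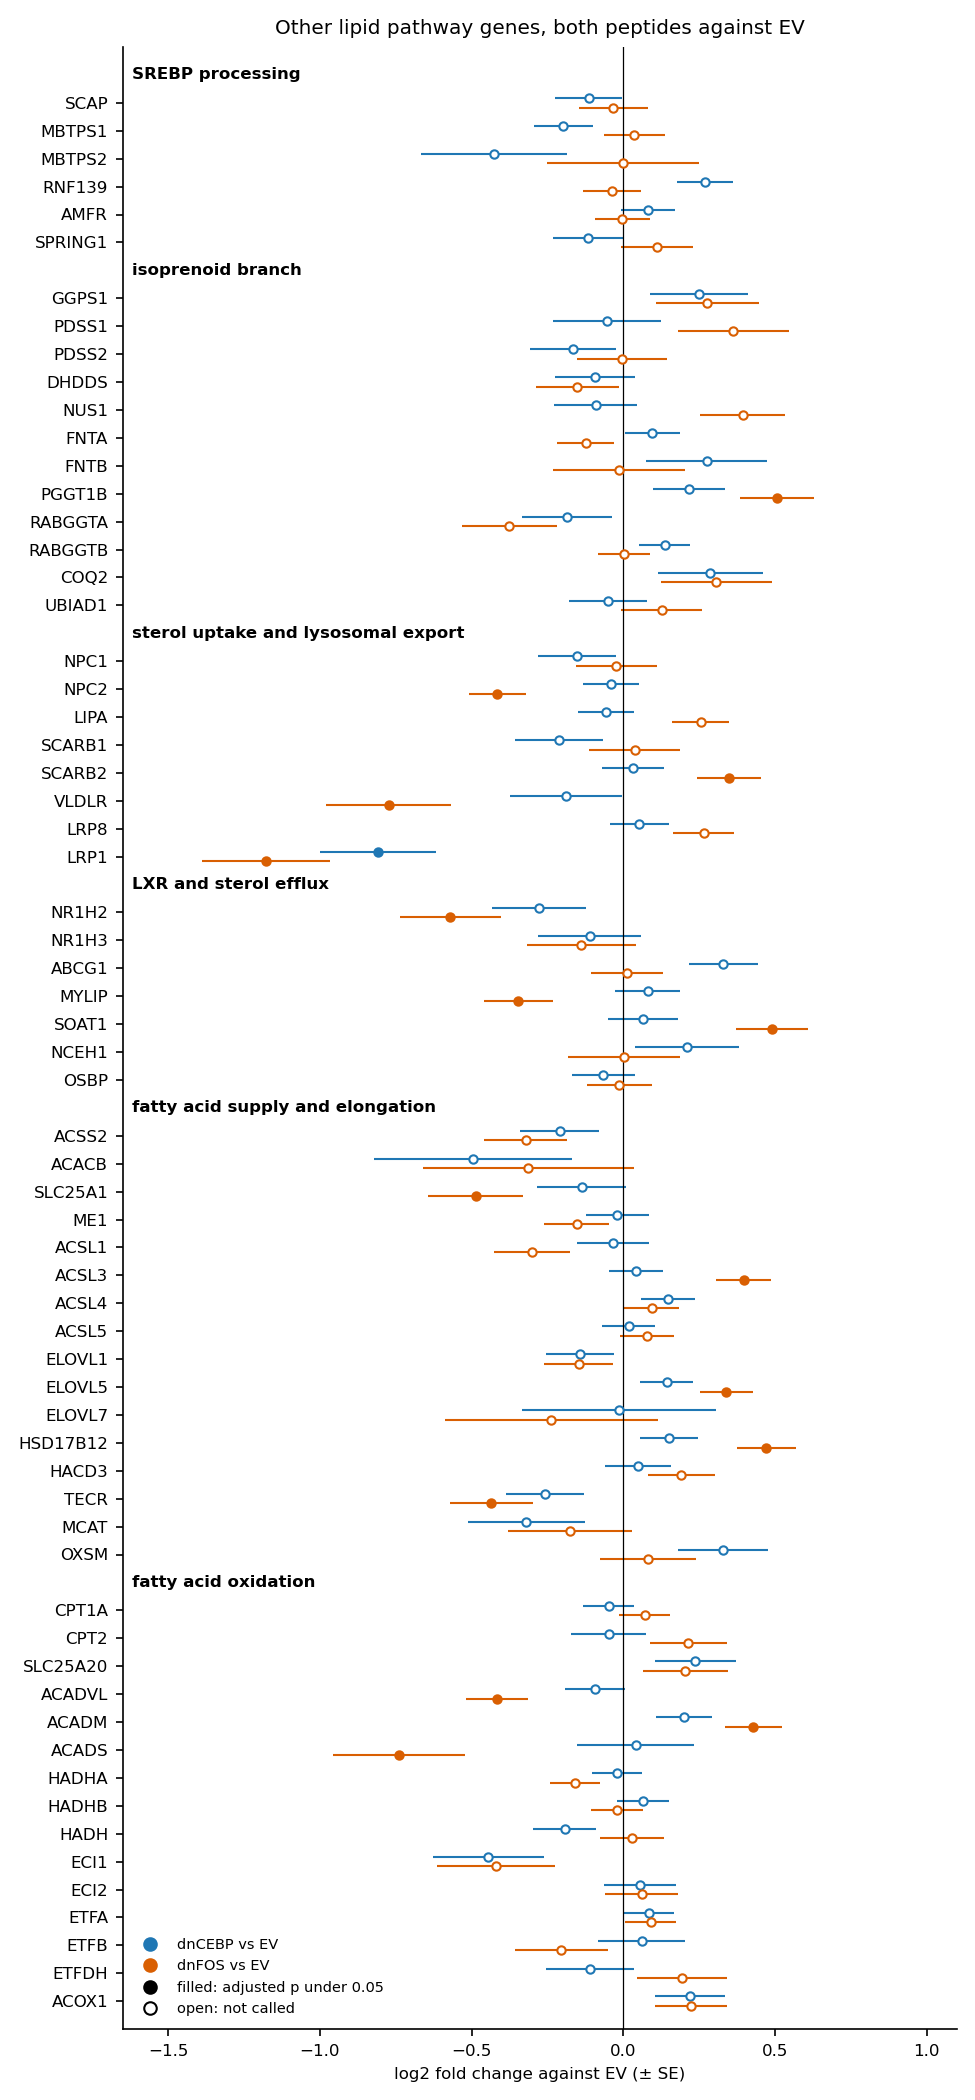
Log2 fold change against EV (horizontal axis, with SE) of the 64 companion genes in dnCEBP and dnFOS, grouped by list. Filled points passed an edgeR adjusted p under 0.05, 16 in dnFOS on both sides of 0 and LRP1 alone in dnCEBP.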

How the data were processed

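The 6 libraries hold RNA of KO52 cells. Per the labels, the authors removed ribosomal RNA from total RNA, amplified libraries by 15 PCR cycles and sequenced 75 bases from both ends. The submitters' processing notes name Trimmomatic, HISAT2, featureCounts, Subread and hg38. The authors deposited raw counts per gene, without normalization, in 1 table per library. The treatment of strand and of reads matching several genes was not given in the sources used here.

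IDs were matched to GENCODE 29. The 15395 genes kept by filterByExpr (minimum count 10) held at least 99.889% of each library. Libraries were scaled by TMM (factors 0.956 to 1.05), which CPM values use, and all 6 were fitted with edgeR 4.0.16 in R 4.3.3 (quasi-likelihood, robust, group means, 3 residual degrees of freedom, common biological coefficient of variation 0.0961). The 3 contrasts were tested two-sided, with Benjamini-Hochberg adjustment over all tested genes and a threshold of 0.05. Lists are described by counts, with no set test. Total counts ran from 9862994 to 27663179, and 3 counts equal 0.108 to 0.304 CPM, for counting error only.

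Alternatives were DESeq2 1.42.0, limma-voom (limma 3.58.1), other scalings and filters, 5 abundant features left out, only 2 groups, a GC and length trend fitted with mgcv 1.9.3 and removed, a replicate block, and each library left out. Scripts were tested on simulated data. All 30 members are accounted for. Called members are given in every library. From each companion list the called genes are named, up to 3 in each direction by size of change with a mean of at least 1 CPM. Members and lists were chosen with earlier results of these data known.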

Additional observations from a re-analysis of the deposited data

Results flagged for a closer look

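The members whose response differed between the peptides, by the direct edgeR comparison of dnFOS with dnCEBP, were PMVK at a log2 fold change of 0.88, MSMO1 at 0.40, IDI1 at 0.35, SC5D at 0.35, ACACA at 0.30 and HMGCS1 at 0.28. PMVK and MSMO1 were called in this comparison under every setting run. IDI1 and ACACA were called with each of the 9 alternative scalings, filters, tools and the GC and length correction. IDI1 lost its call without dnCEBP replicate 1 (adjusted p = 0.115 in edgeR) and without dnFOS replicate 2 (adjusted p = 0.0686 in edgeR), and ACACA without dnCEBP replicate 2 and without dnFOS replicate 2. SC5D was lost with DESeq2 (adjusted p = 0.0800), with limma-voom (adjusted p = 0.0505), without dnCEBP replicate 1 and without dnFOS replicate 2. HMGCS1 was lost without the low-count filter, with only the 2 groups fitted, and without dnCEBP replicate 1, dnCEBP replicate 2 or dnFOS replicate 2. With the GC and length trend removed, HMGCS1 at 0.19 and SC5D at 0.23 were no longer called and PMVK was at 1.02. No group had 4 samples, so no library was tested as standing apart within its group.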

How the results depend on the processing

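The 7 members called in dnFOS against EV were all called with 6 of the 9 alternatives to scaling, filter, tool and samples. HMGCS1 was lost without the low-count filter and with only the 2 groups fitted, and HMGCS1 and SC5D with the GC and length trend removed. No called value changed sign, while STARD4 in dnFOS, which was not called, went from 0.23 to −0.15 with the GC and length trend removed. Scaling by library totals raised the median of all genes by 0.10 in dnFOS against EV and 0.14 in dnFOS against dnCEBP. The members' medians went to 0.034 and 0.139, with 10 and 11 called, all higher. In dnFOS against EV 12.4% of all tested genes were then called higher and 4.39% lower. The shares for dnFOS against dnCEBP are not given here. With the GC and length trend removed the members' medians were 0.058 and 0.090. Leaving out each library in turn gave 0 to 1 members called in dnCEBP against EV with medians of −0.083 to 0.014, 3 to 9 in dnFOS against EV with medians of −0.130 to 0.028, and 2 to 10 in dnFOS against dnCEBP with medians of −0.028 to 0.166. A group left with 1 library was assumed to vary like the others. The share of all tested genes called is not given here for most of these fits. Where it is given, for dnFOS against EV, it was lower than in the main fit. The ranges of calls therefore stand without a background and do not describe a response of the members as a set. Deviations of same-numbered libraries correlated at 0.017 to 0.088 across genes, which cannot show whether the samples were paired. The main fit did not pair them. A replicate block called 2 members in dnCEBP against EV (STARD4 higher, FASN lower). In dnFOS against EV it called 12, 9 higher and 3 lower (ACAT2, SREBF1 and FADS2). In dnFOS against dnCEBP it called 10, 8 higher and 2 lower (ACAT2 and FADS1). The share of all tested genes called with the block is not given here, so these counts stand without a background. With 2 libraries a group and lower depth in dnFOS, small changes of the lower members, such as SREBF1 and MVK, may have been missed. This was not tested.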
